A study of Mus musculus with 6 samples.

Results

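Hox genes encode homeobox transcription factors that give cells their position along the head-to-tail axis of the embryo. The genes of the array annotation whose symbols are Hoxa, Hoxb, Hoxc or Hoxd followed by a number were taken, where a probe set carries that symbol alone. The rule gave 37 genes, among 19938 genes tested in all. Hoxb8 was read only by a probe set it shares with Hoxb7, and so is not one of the 37. Each of the 37 genes had 1 such probe set, so no choice between probe sets was needed. They come from 4 clusters, with 10 genes of the HoxA cluster on chromosome 6 and 9 each of HoxB on chromosome 11, HoxC on chromosome 15 and HoxD on chromosome 2.

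RNA came from the neocortex, which becomes the layered cerebral cortex, of single mouse embryos at embryonic day 14.5. The 3 mutants are labelled as knockouts of Bcl11a, with a deleted floxed allele on both chromosomes, and the 3 controls carried wild-type Bcl11a alleles. Bcl11a, also known as Ctip1, is a zinc finger transcription factor that projection neurons of the cortex use. The sources used here do not give the Cre line, the cells that lost the gene or the strain. Each embryo gave 1 Affymetrix Mouse Gene 1.0 ST array.

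Hox genes lie in order within their clusters, and the position of a gene in its cluster matches both when it is switched on and how far forward in the body it is used. Genes with low numbers act in the hindbrain and neck, and genes with high numbers act in the lower spinal cord, the limbs and the tail. In the nervous system they are used from the hindbrain backwards, and in the forebrain the clusters are held silent by Polycomb proteins, which add repressive marks to histones. The 37 probe sets were therefore described first as a reading of what the arrays report for genes not known to be used in this tissue, and then compared between mutants and controls.

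The arrays were alike as a whole, with correlations of 0.995 to 0.998 between pairs over all genes. Of all genes, 57 passed the threshold of an adjusted p under 0.05 in limma, 49 higher and 8 lower in the mutants, which is 0.286% of genes tested. Bcl11a itself read 11.41, 11.49 and 11.34 in the mutants and 12.20, 12.30 and 12.26 in the controls (log2), a difference of -0.84 ± 0.065 (SE, limma adjusted p = 0.00201). By an exact permutation test, two-sided, p was 0.1, which no split of 3 against 3 arrays can go below. Whether its probes lie in the deleted exons is unknown here. Sema3c, a secreted guidance cue that the study's title names, was higher in the mutants by 1.27 ± 0.10 (SE, limma adjusted p = 0.00201). The neocortex was checked with 12 marker genes, of which 10 were measured, and their means over the arrays lay between 9.94 and 12.64.

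Promoter sequences were read for the Hox genes to show what the members share beyond their symbols. RefSeq windows of GRCm38.p6, which run from 250 bases before to 50 bases after a transcript start, were present for 22 Hox genes (24 windows). The 3 windows shown belong to Hoxb1 and Hoxd9, which are among the 8 brightest Hox probe sets, and to Hoxa5, the dimmest. Capitals mark each CG dinucleotide, the letters that make up CpG islands.
Hoxb1, chr11:96365508-96365807, plus strand: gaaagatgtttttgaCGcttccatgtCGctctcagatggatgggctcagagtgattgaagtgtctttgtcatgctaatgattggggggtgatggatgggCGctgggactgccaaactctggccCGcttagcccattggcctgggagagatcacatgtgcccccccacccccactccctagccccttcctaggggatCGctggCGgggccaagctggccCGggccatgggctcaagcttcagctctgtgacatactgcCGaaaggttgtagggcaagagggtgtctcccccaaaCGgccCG
Hoxd9, chr2:74697513-74697812, plus strand: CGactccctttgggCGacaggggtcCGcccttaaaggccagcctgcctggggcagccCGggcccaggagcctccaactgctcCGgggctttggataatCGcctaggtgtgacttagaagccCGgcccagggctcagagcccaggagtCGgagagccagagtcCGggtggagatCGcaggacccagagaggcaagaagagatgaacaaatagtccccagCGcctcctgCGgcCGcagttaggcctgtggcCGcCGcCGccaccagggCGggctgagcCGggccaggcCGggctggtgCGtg
Hoxa5, chr6:52204538-52204837, minus strand: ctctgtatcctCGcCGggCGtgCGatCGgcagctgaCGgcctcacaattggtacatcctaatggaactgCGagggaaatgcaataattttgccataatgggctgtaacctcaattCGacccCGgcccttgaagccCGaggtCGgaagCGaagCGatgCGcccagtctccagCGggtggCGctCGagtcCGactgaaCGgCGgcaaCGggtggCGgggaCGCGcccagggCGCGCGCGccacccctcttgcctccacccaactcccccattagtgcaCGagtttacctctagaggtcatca
These windows held 10, 20 and 29 CG dinucleotides in the order printed. Over the 24 Hox windows the median was 14.5 (range 4 to 45) and the median share of G and C was 57.7%, whereas over the 32827 windows of all other genes the medians were 7 and 52.7%. No Hox window lacked a CG dinucleotide, and 5.43% of the other windows did. The olfactory receptor genes, which serve below as a scale for silence, had a median of 1 CG dinucleotide and 35% G and C over 944 windows.

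A TATA box spelled TATAAA, searched on both strands, was found in 4 of the 24 Hox windows (16.7%) and in 13.6% of the other windows. A Pbx-Hox type site spelled TGATNNAT, on either strand, was found in 4 Hox windows (16.7%) and in 8.84% of the others. Both Hox counts include the window of Hoxb8, which holds both motifs, so the shares among the members alone are lower. The match in the Hoxb1 window reads TGATGGAT and starts at base 89, counted from 1 at the 5′ end of the window. Hoxb1 is known to maintain its own expression in the hindbrain through sites bound by Pbx and Hox proteins. These matches are counts of letters and were not tested.

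The clusters also hold microRNA genes, which are known to act on Hox messenger RNAs, among other targets. Their mature sequences are shown because they place the same seed in different Hox clusters, and capitals mark the seed, bases 2 to 8.
mmu-miR-10a-5p (HoxB cluster): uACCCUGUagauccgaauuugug
mmu-miR-10b-5p (HoxD cluster): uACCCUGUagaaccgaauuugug
mmu-miR-196a-5p (HoxB and HoxC clusters): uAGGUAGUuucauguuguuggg
mmu-miR-196b-5p (HoxA cluster): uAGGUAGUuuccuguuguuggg
mmu-miR-615-3p (HoxC cluster): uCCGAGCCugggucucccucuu
The miR-10 pair shares its seed and differs by U12A, where miR-10a-5p is named first and positions count from the 5′ end. The miR-196 pair shares another seed and differs by A12C, with miR-196a-5p named first. The values of their genes are given with the cluster neighbours.

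The Hox probe sets were dim. Their means over the 6 arrays ran from 5.10 for Hoxa5 to 7.74 for Hoxb3 on the log2 scale, with a median of 5.89, where the median of all genes was 7.92. In percentiles of all genes none lay above the 48.0th, and the median was at 22.9. All 37 were thus dimmer than the typical gene. A brightness orders probe sets and not transcripts, since probes differ in how well they bind.

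Olfactory receptor genes, 1015 of which were measured, were used to set a floor, since they are used in the nose and read near the background in most tissues. Their median lay between 4.77 and 4.85 on the 6 arrays, and their 95th percentile between 6.28 and 6.49. On all 6 arrays 10 Hox genes exceeded that percentile of the same array, and 25 exceeded it on none. Hoxd11 exceeded it on 4 arrays and Hoxa6 on 1, just outside the rule, and Hoxd3 at a mean of 6.58 was the dimmest gene inside it. The 37 genes therefore lay above the middle of the olfactory receptor genes, and 10 of them above 95% of those genes. The genes were grouped as silent in the neocortex. On every array 25 of the 37 lay above the olfactory receptor median and not above the 95th percentile, and for the other 12 the arrays do not tell a low level from a probe set that reads high without transcript. These counts depend on the floor chosen. The 95th percentile of vomeronasal receptor genes was lower, between 5.44 and 5.58, and more Hox genes exceeded it, as counted in the last section.

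A second scale was given by 18 measured genes of differentiated tissues outside the brain, such as the pancreas, muscle and testis. Of these, 9 exceeded the olfactory receptor percentile on all 6 arrays (50%), set beside 10 of the 37 Hox genes. Their means ran from 4.73 to 7.77, and the brightest, the sarcomeric actin gene Acta1, lay just above Hoxb3. Among the 7135 non-Hox genes whose means lay within the Hox range, 42.5% exceeded the percentile on every array. The brightest Hox probe sets were thus within the range read for genes of other tissues.

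**Figure D1:**
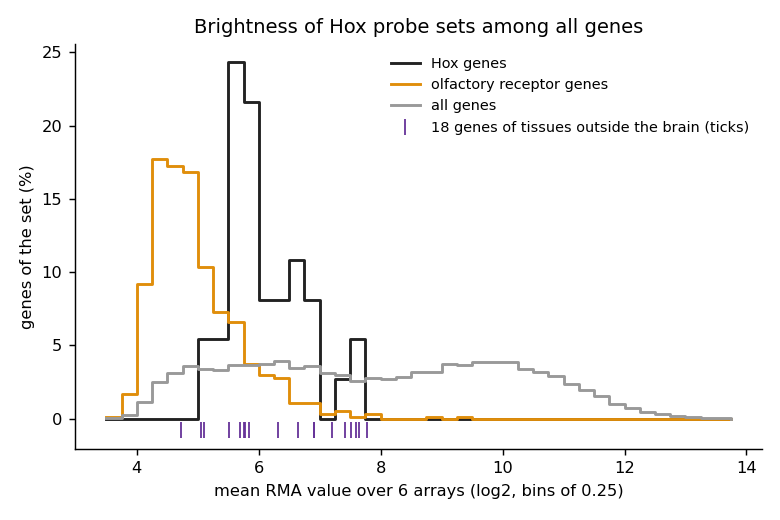
Share of genes of each set (y axis, %) in bins of the mean RMA value over 6 arrays (x axis, log2), for Hox genes, olfactory receptor genes and all genes. Ticks under the axis mark 18 genes of tissues outside the brain. The Hox genes lie between 5.10 and 7.74, right of the olfactory receptor median and left of most expressed genes.

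Among paralog groups 1 to 4, which pattern the hindbrain and neck, 11 genes were measured and 5 exceeded the floor on all arrays. Hoxb3, which acts in the hindbrain and in pharyngeal development, read 7.71, 7.74 and 7.79 in the mutants and 7.88, 7.72 and 7.58 in the controls. Hoxb1, which sets the identity of the fourth rhombomere of the hindbrain, read 7.43, 7.50 and 7.61 in the mutants and 7.76, 7.64 and 7.42 in the controls. For both genes the groups overlapped, with control replicate 1 highest and control replicate 3 lowest.

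Hoxa4, which patterns neck vertebrae, read 7.47, 7.42 and 7.55 in the mutants and 7.57, 7.49 and 7.33 in the controls. Hoxb2, a hindbrain gene that patterns rhombomeres next to Hoxb1, read 7.00, 7.03 and 7.06 in the mutants and 7.04, 7.00 and 6.85 in the controls. In both genes the low value of the controls was again that of replicate 3. The fifth of these genes, Hoxd3, which acts in the first neck vertebrae, averaged 6.59 ± 0.12 in the mutants and 6.58 ± 0.06 in the controls (SD, n = 3 each).

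The same low-numbered groups held dim members. Hoxa3, which is needed for the thymus and parathyroid glands, read 5.15, 5.11 and 5.10 in the mutants and 5.25, 5.12 and 5.02 in the controls. Hoxc4, a gene of the neck region, read 5.39, 5.26 and 5.29 in the mutants and 5.22, 5.26 and 5.17 in the controls. Its groups touched, since mutant replicate 2 lay just below control replicate 2. Hoxa2, the Hox gene that reaches furthest forward in the hindbrain, averaged 5.50 ± 0.07 in the mutants and 5.50 ± 0.03 in the controls (SD, n = 3 each). Hoxb4, Hoxd4 and Hoxd1 had means of 5.83 to 6.13 over the 6 arrays.

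Groups 5 to 8 act at the level of the neck, the forelimb and the chest, and 2 of 10 genes exceeded the floor on all arrays. Hoxb7, a gene of the trunk, read 6.98, 6.75 and 6.90 in the mutants and 6.96, 6.87 and 6.68 in the controls. Hoxa7, another trunk gene, read 6.66, 6.49 and 6.76 in the mutants and 6.73, 6.58 and 6.37 in the controls. The groups overlapped in both. Hoxa6, Hoxb5, Hoxb6, Hoxc5 and Hoxd8 had means between 5.56 and 6.32.

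Hoxa5, which acts in the neck, the lung and the forelimb level of the spinal cord, read 5.06, 5.13 and 5.13 in the mutants and 5.11, 5.11 and 5.05 in the controls. Hoxc6, a gene of forelimb-level motor neurons, read 5.39, 5.41 and 5.45 in the mutants and 5.35, 5.35 and 5.27 in the controls. It was the 1 Hox gene whose groups did not overlap. Hoxc8, which helps to specify motor neuron pools of the forelimb, read 5.81, 5.74 and 5.51 in the mutants and 5.73, 5.49 and 5.29 in the controls. Its groups overlapped, and it had the widest spread within groups of all 37 genes, with a within-group SD of 0.19. The probe set shared by Hoxb8 and Hoxb7 averaged 5.58 ± 0.15 in the mutants and 5.53 ± 0.11 in the controls (SD, n = 3 each).

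Groups 9 to 13 act in the lower spinal cord, the limbs, the urogenital tract and the tail, and 3 of 16 genes exceeded the floor on all arrays. Hoxb9, a gene of the chest region, read 7.03, 6.98 and 6.96 in the mutants and 7.04, 6.98 and 6.90 in the controls. Hoxb13, which acts in the tail and the prostate, read 6.68, 6.61 and 6.76 in the mutants and 6.79, 6.74 and 6.60 in the controls. Hoxd9, which acts in the lumbar spinal cord and limb, read 6.67, 6.71 and 6.70 in the mutants and 6.78, 6.67 and 6.43 in the controls. Control replicate 3 was lowest for each of these 3 genes, and the groups overlapped.

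Hoxd13, which shapes the digits, read 6.07, 6.08 and 6.01 in the mutants and 6.18, 6.04 and 5.70 in the controls, where replicate 3 stood apart from the other arrays. Hoxa9, which acts in blood stem cells and the trunk, read 5.53, 5.56 and 5.54 in the mutants and 5.69, 5.70 and 5.46 in the controls. Here the mutants lay between the controls. Hoxa13, which acts in digits and the hindgut, averaged 5.85 ± 0.08 in the mutants and 5.88 ± 0.04 in the controls, and Hoxc12 averaged 5.92 ± 0.08 in the mutants and 5.97 ± 0.09 in the controls (SD, n = 3 each). The other 9 genes of these groups had means between 5.50 and 6.45 over the arrays.

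**Figure D2:**
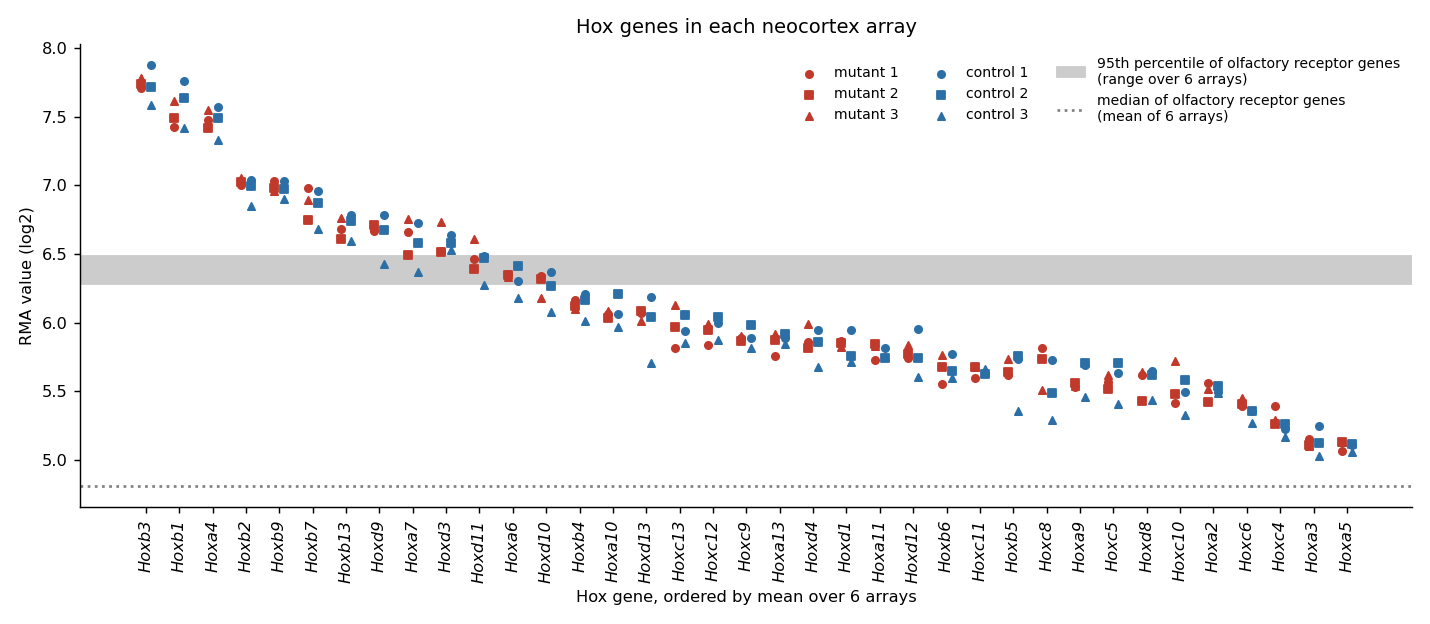
RMA values (y axis, log2) of the 37 Hox genes (x axis, ordered by their mean) on each array, with mutants in red left of controls in blue and a marker for each replicate. The grey band is the range over arrays of the 95th percentile of olfactory receptor genes (6.28 to 6.49), and the dotted line the mean of their medians. Red and blue overlap for every gene but Hoxc6, and control replicate 3 (blue triangle) is often lowest.

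By cluster, the median level was 5.83 for HoxA, 6.86 for HoxB, 5.59 for HoxC and 6.01 for HoxD. Of the 10 genes above the floor, 6 were of HoxB, 2 of HoxA, 2 of HoxD and none of HoxC, whose 9 genes ran from 5.27 to 5.96. By paralog group, the median was 6.13 for groups 1 to 4, 5.62 for groups 5 to 8 and 5.95 for groups 9 to 13. These are descriptions with no test, since the genes of a cluster share a locus and each is read by a different probe set. Across the 21 Hox genes with a promoter window, the level was hardly related to the share of G and C in the window (Pearson r = 0.09, points that share the arrays). Across 863 olfactory receptor genes the same r was 0.45.

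The dim readings ended near the edges of the clusters in part. Neighbours were the 3 nearest tested genes on each side of each cluster, after symbols of the Hox, Mir, Gm, Olfr, Rik and antisense types were left out. The 24 neighbours had a median of 9.50, and 18 exceeded the floor on all arrays. This rule passes over noncoding genes with such names, but it kept Hottip, a noncoding gene beside HoxA, at a mean of 5.32. Cbx5, a heterochromatin protein gene beside HoxC, averaged 12.22 ± 0.04 in the mutants and 12.24 ± 0.05 in the controls (SD, n = 3 each). Mtx2, a mitochondrial import gene beside HoxD, averaged 11.33 ± 0.27 in the mutants and 11.19 ± 0.04 in the controls. Other neighbours were as dim as Hox genes, such as Skap1, an adaptor gene of T cells, at a mean of 6.31 and Ttll6, a tubulin-modifying enzyme gene, at 6.24. None of the 24 passed the threshold, which 0.286% of all genes did, and 1 had an unadjusted p under 0.05 in limma, a share near the 6.05% of all genes. The lowest adjusted p was 0.457, of Nfe2l2, which encodes the stress response factor Nrf2 and differed by 0.39 ± 0.12 (SE).

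Inside the clusters, 10 noncoding genes had a probe set of their own, and 9 exceeded the floor on no array. The genes of the microRNAs shown above had means of 4.16 for Mir10a, 4.05 for Mir10b, 4.57 for Mir196a-1, 5.49 for Mir196a-2 and 5.61 for Mir196b. Mir615, inside HoxC, was the exception at 8.04, with 7.96, 7.97 and 8.14 in the mutants and 8.18, 8.17 and 7.79 in the controls. The 9 Hox genes of HoxC had means of only 5.27 to 5.96, and all 9 exceeded the floor on no array. Probe sets of microRNA genes may read a host transcript, and the mature microRNAs were not measured apart. What the Mir615 probe set reads was not tested. None of the 10 passed the threshold, and none had an unadjusted p under 0.05 (limma, lowest 0.13), and their differences ran from -0.07 to 0.10.

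**Figure D3:**
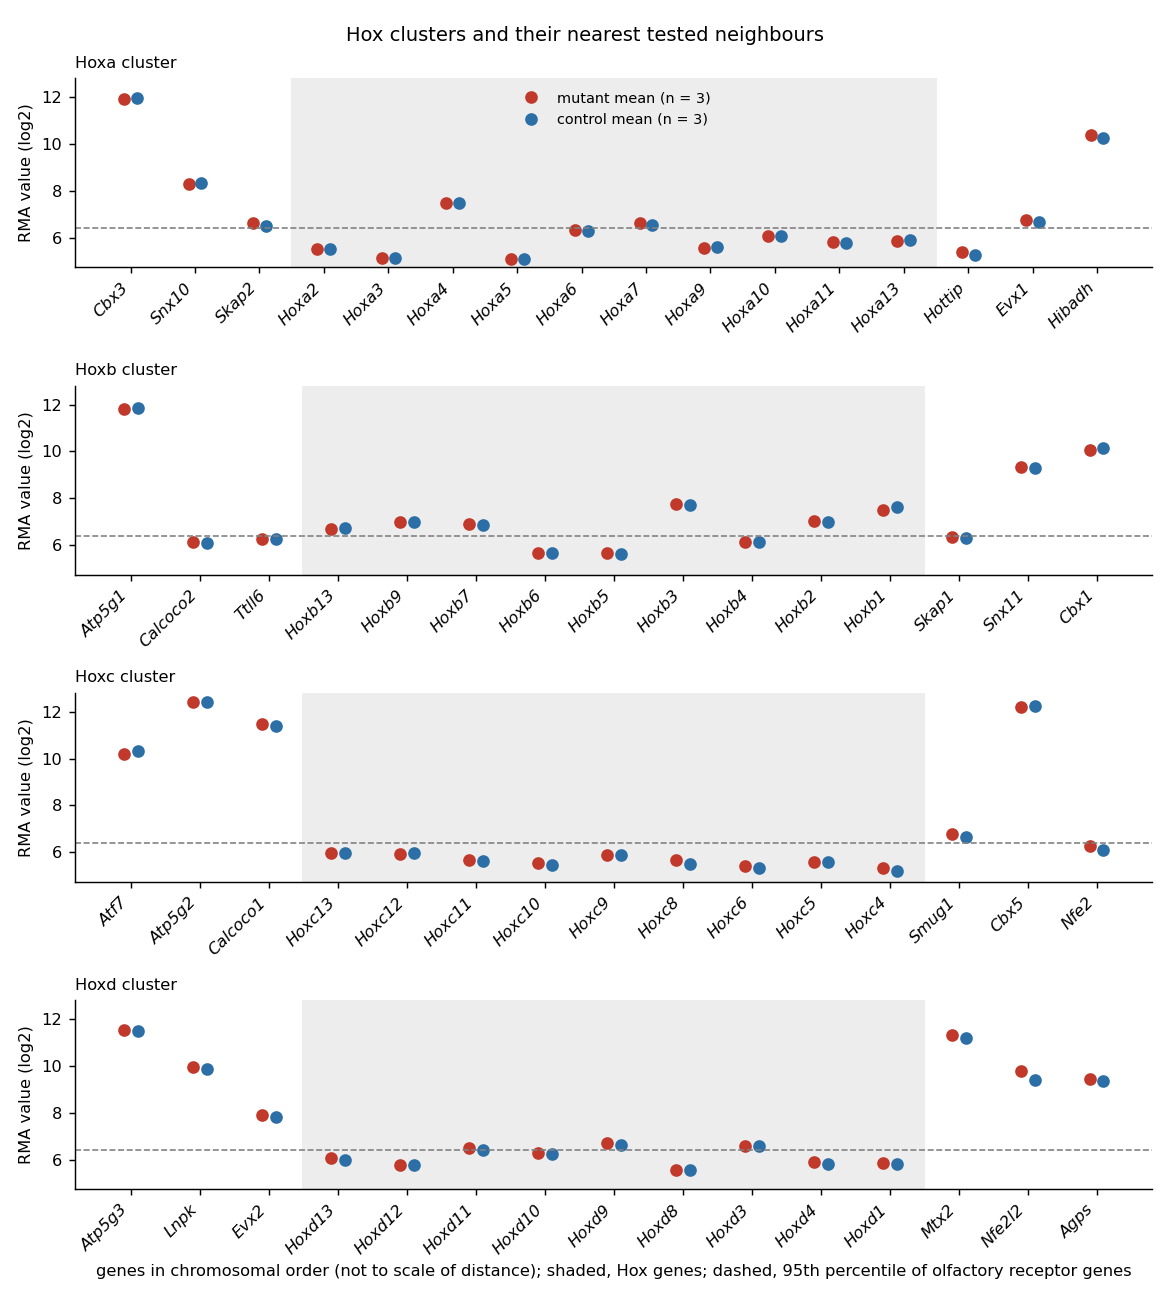
Mean RMA value (y axis, log2) of mutants (red, left) and controls (blue, right), n = 3 each. The Hox genes of each cluster (shaded) and 3 tested neighbours on each side follow their start in RefSeq's table (x axis, not to scale). Neighbours are the nearest tested genes after symbols of the Hox, Mir, Gm, Olfr, Rik and antisense types were left out. The dashed line is the mean over arrays of the 95th percentile of olfactory receptor genes. The HoxC genes all lie below it, and 18 of the 24 neighbours exceed it on every array.

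The comparison of mutants with controls asks which genes depend on Bcl11a. In whole tissue, fewer cells of a type and less RNA per cell cannot be told apart. No Hox gene passed the threshold in limma in either direction, where the background over all genes was 0.246% higher and 0.0401% lower in the mutants. At an unadjusted p under 0.05 the count of Hox genes was again 0 of 37, against 6.05% of all genes and 5.23% of the 7135 genes of like brightness. The lowest unadjusted p was 0.161, of Hoxc6, and the lowest adjusted p was 0.9995. The groups did not overlap for 1 of 37 Hox genes (2.70%), where the background was 10.5% of all genes.

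The differences were small, from -0.09 to 0.18 on the log2 scale, and 1 exceeded 0.1 in size. That gene was Hoxc8, with a difference of 0.18 ± 0.12 (SE), or 1.14-fold. Hoxc4 and Hoxc6 followed at 0.10 ± 0.06 and 0.09 ± 0.06, then Hoxd13 at 0.08 ± 0.11 and Hoxa7 at 0.08 ± 0.10. At the other end, Hoxb1 differed by -0.09 ± 0.09, Hoxa9 by -0.07 ± 0.08, Hoxc12 by -0.05 ± 0.07, Hoxa13 by -0.03 ± 0.06 and Hoxb13 by -0.02 ± 0.07. None of these differences passed the test, and no direction is given to them.

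The 95% intervals of the differences, not adjusted for the number of genes, bound what the 6 arrays leave possible. All 37 intervals held 0, and all 37 lay within a 1.5-fold change either way. For 29 genes the interval lay within a 1.2-fold change either way. The highest upper bound was 0.46 for Hoxc8, or 1.37-fold higher in the mutants, and the lowest lower bound was -0.31 for Hoxb1, or 1.24-fold lower. RMA compresses differences near the background, so for dim probe sets these bounds hold for the RMA values and can understate the change in transcript.

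**Figure D4:**
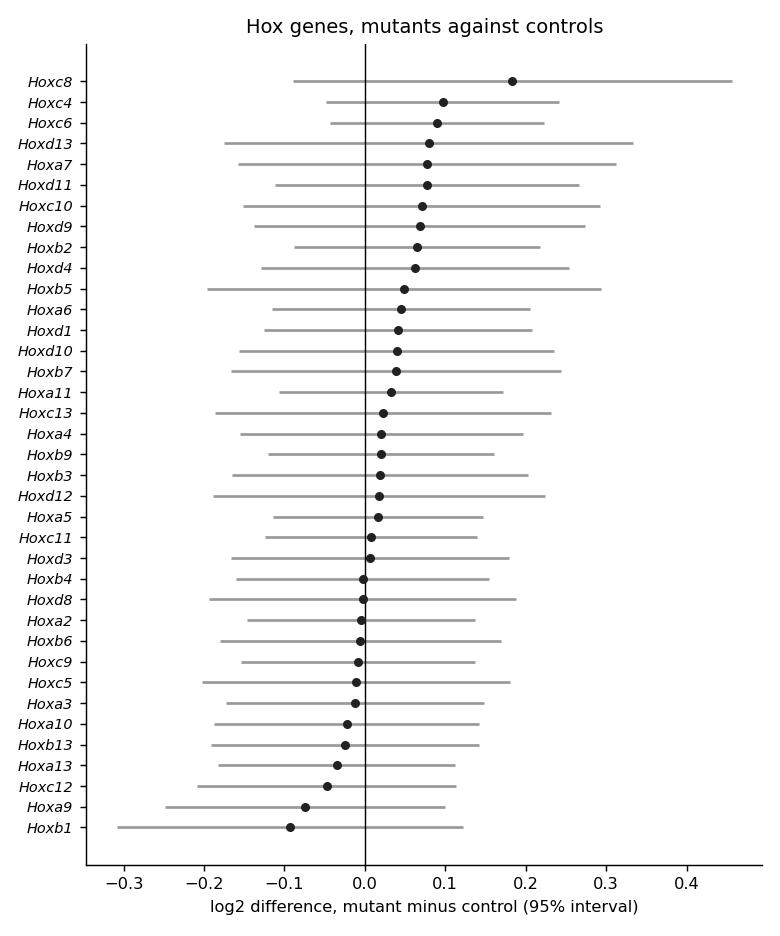
Log2 difference of mutants minus controls (x axis) for each of the 37 Hox genes (y axis, ordered by difference), with bars for the 95% interval from limma (n = 3 arrays each). Every bar crosses 0, and the point furthest from 0 is Hoxc8 at 0.18.

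Part of the spread within the controls was shared by the Hox genes. Control replicate 3 was the lowest of the 6 arrays for 28 of 37 Hox genes and the highest for none, and it was below control replicate 1 for 36. The median deviation of the Hox genes from their own means was 0.00 in mutant 1, -0.01 in mutant 2, 0.04 in mutant 3, 0.08 in control 1, 0.01 in control 2 and -0.12 in control 3. All 4 clusters took part, with medians in control replicate 3 of -0.10 for HoxA, -0.14 for HoxB, -0.10 for HoxC and -0.18 for HoxD. The median Hox difference between the genotypes, 0.02, was smaller in size than the deviations of control replicates 1 and 3.

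The same arrays, control replicates 1 and 3, were the extremes among other genes of like brightness. For the 7135 non-Hox genes of like brightness the median deviation was -0.10 in control replicate 3 and 0.05 in control replicate 1, and control replicate 3 was lowest for 54.0% of them, against 75.7% of the Hox genes. Over the olfactory receptor genes it was -0.03 in control replicate 3, and over all genes -0.01. Split by promoter composition, the genes of like brightness gave -0.09, -0.10 and -0.10 in control replicate 3 for the genes with the lowest, middle and highest share of G and C. What set this array apart was not tested.

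**Figure D5:**
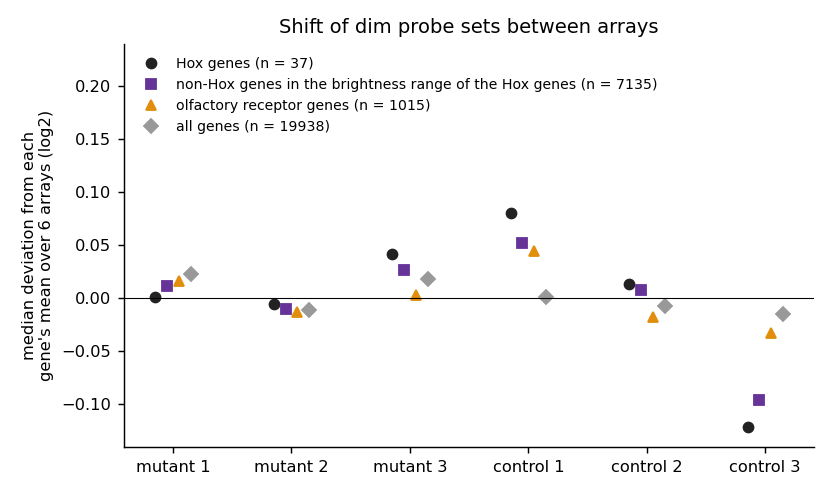
Median deviation of genes from their own mean over the 6 arrays (y axis, log2) on each array (x axis), for Hox genes, non-Hox genes of the same brightness range, olfactory receptor genes and all genes. In control replicate 3 the Hox genes lie at -0.12 and the equally bright genes at -0.10, whereas all genes lie near 0.

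The balance of signs among the Hox genes moved with the arrays left out, and furthest without control replicate 3. With all arrays 24 of 37 differences were positive (64.9%), where 60.3% of all genes were, and the median was 0.02 for the Hox genes and 0.02 for all genes. Without control replicate 3, 8 of 37 were positive (21.6%), where 55.2% of all genes and 39.1% of the genes of like brightness were, and 16 Hox genes changed sign. Without control replicate 1, 30 of 37 were positive (81.1%), where 62.6% of all genes and 73.6% of the genes of like brightness were. Leaving out control replicate 2 also gave 30 of 37, where 60.4% of all genes and 64.6% of the genes of like brightness were positive. Leaving out mutant replicate 2 gave 29 of 37 and mutant replicate 1 gave 24, where 63.7% and 60.4% of the genes of like brightness were positive. Without mutant replicate 3, 18 were (48.6%), where 56.7% of all genes and 55.4% of the genes of like brightness were. When each array was centred on the genes of like brightness, a setting chosen after the data were seen, 17 of 37 were positive (45.9%). So were 48.6% of all genes and 49.3% of the genes of like brightness. The median Hox difference was then -0.0014, and the median within-group SD of the Hox genes was 0.07 in place of 0.10. In that setting too no Hox gene passed, and the groups did not overlap for 2 of 37, Hoxc4 and Hoxc6, where the background was 7.61% of all genes.

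Partners and regulators of Hox genes were measured on the same arrays. Meis, Pbx and Pknox proteins bind DNA together with Hox proteins, and also act without them in the forebrain. Of 9 such genes 8 were measured, all exceeded the floor on every array, none passed the threshold (background 0.286%), and 2 had an unadjusted p under 0.05 in limma (background 6.05%). Pbx3 averaged 10.19 ± 0.14 in the mutants and 9.79 ± 0.16 in the controls (SD, n = 3 each), a difference of 0.40 ± 0.10 (SE, limma adjusted p = 0.265). Meis1 averaged 7.96 ± 0.12 in the mutants and 7.67 ± 0.10 in the controls, a difference of 0.29 ± 0.08 (limma adjusted p = 0.370). Pknox2 and Pbx2 differed by -0.17 and -0.10. The groups did not overlap for 3 of the 8, where the background was 10.5%.

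Of 30 Polycomb genes 28 were measured, all above the floor on every array, with a median level of 10.13. None passed the threshold, 2 of 28 had an unadjusted p under 0.05 in limma, a share near the 6.05% of all genes, and the median difference was 0.01, against 0.02 for all genes. Ezh2, the enzyme that methylates histone H3 at lysine residues of Hox clusters, averaged 12.29 ± 0.02 in the mutants and 12.26 ± 0.07 in the controls (SD, n = 3 each). Eed, its partner subunit, differed by -0.20 ± 0.10 (SE) and Kdm2b, which recruits a Polycomb complex to CpG islands, by 0.17. The 11 genes of the opposing Trithorax group and the matching demethylases had a median level of 10.66 and also held no call in limma, with none at an unadjusted p under 0.05. Kdm6a, a demethylase of the Polycomb mark, differed by -0.14 and Kmt2a, which maintains Hox expression in blood cells, by -0.11.

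Other homeobox genes were read for comparison. The 16 measured homeobox genes of the forebrain, of 18 listed, had a median level of 9.86, and 15 exceeded the floor on all arrays. The exception was Otx2, a gene of the more caudal forebrain and midbrain, which averaged 5.38 in the mutants and 5.29 in the controls. Cux2, a gene of upper-layer neurons, differed by 0.24 ± 0.08 (SE) and Emx2, which patterns cortical areas, by -0.15. No member passed, and 2 of 16 had an unadjusted p under 0.05 in limma, where 6.05% of all genes did. The 9 ParaHox, Evx and Mnx genes, close relatives of the Hox genes used in gut, tail and spinal cord, had a median of 6.43, and 4 exceeded the floor. None passed or had an unadjusted p under 0.05 in limma. Gsx2, which patterns the ganglionic eminence next to the cortex, differed by 0.10, and Cdx2, an activator of posterior Hox genes, by -0.10.

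Marker lists of the hindbrain and spinal cord, of mesenchyme and meninges and of blood were read beside these values. Of 17 hindbrain and spinal cord markers 15 were measured, none passed or had an unadjusted p under 0.05 in limma, their median was 6.29, and 6 exceeded the floor on all arrays. Egr2, which marks rhombomeres of the hindbrain, averaged 6.35 in the mutants and 6.23 in the controls. None of 12 mesenchyme and meninges markers passed, and 5 had an unadjusted p under 0.05 in limma, where 6.05% of all genes did. The sign was positive for all 12, where it was for 60.3% of all genes. Their mean level was 7.64, 6.74 and 6.65 in the mutants and 6.51, 6.51 and 6.36 in the controls. Dcn, which encodes the matrix proteoglycan decorin, read 10.49, 8.32 and 7.27 in the mutants and 6.62, 6.58 and 6.62 in the controls, so mutant replicate 1 stood apart. Among the Hox genes the same array was highest for 4 and lowest for 6. Of 13 blood markers 12 were measured and 3 rose, where 0.246% of all genes did, the embryonic globins Hbb-bh1 and Hba-x and the red cell anion exchanger Slc4a1. The mean level of the blood list was 8.44, 8.39 and 8.45 in the mutants and 7.74, 7.64 and 7.71 in the controls. The 3 genes that rose differed by 5.02, 1.38 and 1.47, in the order named. The other measured members differed by -0.03 (Mpo) to 0.29 (Csf1r), none past the threshold. Of the 12 blood markers, 6 had an unadjusted p under 0.05 in limma, the 3 that rose among them, where 6.05% of all genes did. The groups did not overlap for 5 of the 12, where the background was 10.5% of all genes. Hoxa9 and the other Hox genes used in blood progenitors held no call. The part of these cells in the Hox readings was not tested.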

How the data were processed

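Each of the 6 embryos gave 1 array, 3 mutants and 3 controls. The deposited values are log2 intensities that the authors made with Affymetrix Expression Console and RMA, per the submitters' processing notes. The log base was taken from RMA's usual output and from the range of 3.41 to 13.8. The sources used here give no versions. RMA's quantile step makes the arrays' distributions alike. Arrays have no read depth, and their number limits the precision.

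Of 35556 probe sets, 21789 had 1 symbol in GEO's platform annotation, 1621 several and 12146 none listed here. Symbols of 21698 were matched by Entrez number to RefSeq's table of GRCm38.p6, used for names, gene order and promoter windows. Where a gene had several probe sets, that with the highest mean was kept, which gave 19938 genes.

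The genotypes were compared over all 6 arrays with lmFit and eBayes of limma 3.58.1 in R 4.3.3, with no covariate, after a check on simulated data, with Benjamini-Hochberg adjustment over all genes. Every p-value printed without another name is from this fit and two-sided. Intervals cover 95% and use limma's moderated error. The series text says RNA was isolated from each embryo separately, so arrays were taken as biological replicates.

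The members, lists and rules were chosen with earlier results of these data known. By the rule for names, Hox genes were named freely, with full values for the 8 brightest, the 4 dimmest and the 5 with the largest difference each way. From each other list the 2 highest and 2 lowest differences could be named. Ezh2, Otx2 and the noncoding genes inside the clusters were named after their values were seen. Not every nameable gene is printed.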

Additional observations from a re-analysis of the deposited data

How the results depend on the processing

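No Hox gene passed in any of the 18 other settings, of which 1, the centring on genes of like brightness, was chosen after the data were seen. Not all of these could change the outcome. Each Hox gene has a single probe set, so another choice of probe sets left the Hox differences as they were. Settings that changed only the p cutoff reread the main fit, so their outcome followed from it. Over the settings that refit the data, Hox differences ran from -0.19 to 0.30, and the lowest adjusted p was 0.473, with array weights. Between 8 and 31 of 37 were positive. The 8 came without control replicate 3, where 39.1% of the genes of like brightness were positive. The 31 (83.8%) came with quantile normalization, where 65.7% of the genes of like brightness were positive. Hox differences below the threshold changed sign in 10 of these settings, so no direction is given for them. With the filter on dim genes 11 Hox genes were left to test. The count over all genes, 57, was 217 with array weights, 34 with the replicate block, 20 to 50 when 1 array was left out (20 without mutant replicate 2 or control replicate 2, 25 without mutant replicate 1 and 33 without mutant replicate 3), 107 when the adjusted p had to be under 0.1, and 136 or 1207 for a raw p below 0.001 or 0.05. The 3 calls of the other lists were 21 at an unadjusted p under 0.05 and 3 in every other setting. Replicate numbers were not taken to pair embryos, since mutant and control arrays of one number had correlated deviations of only 0.03, -0.14 and 0.08. The replicate block changed no call among the Hox genes, Bcl11a and Sema3c. Bcl11a differed by -0.88 to -0.80 and Sema3c, the gene of the study's title, by 1.16 to 1.34, past the threshold in every setting. The 10 Hox genes above the floor were 27 against vomeronasal receptor genes, 3 against the 99th percentile of olfactory receptor genes and 10 or 11 otherwise. The cause of these shifts was not tested.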
